A study of Mus musculus with 26 samples.

Results

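Il6, Ccl2, Ccl5, Ccl7, Cxcl1, Cxcl5, Cxcl10, Cxcl12, Csf1 and Lif are 10 genes for secreted chemokines and cytokines that recur in descriptions of the senescence-associated secretory phenotype. They were chosen by name, with earlier results of these data known, and were followed through all 9 groups of the series. The table held 52962 genes, of which 15402 were expressed highly enough to be tested, and all 10 members were among them, so none was unexpressed. The study itself singled out Il6, Ccl2 and Cxcl10 on these same samples, and the direction of those 3 genes is therefore not independent evidence. With earlier results known, the other members are not a blind choice either.

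Chemokines are small secreted proteins that attract leukocytes by binding receptors on their surface, and they are divided by the spacing of their first cysteines into CC and CXC types. Interleukin-6 and leukaemia inhibitory factor both signal through the shared receptor chain gp130 to STAT3, whereas colony-stimulating factor 1 sustains macrophages. Many of these genes are transcribed under NF-kB, C/EBP and AP-1 factors in inflamed or senescent cells, their messengers are often short-lived, and in adipose tissue precursor cells are a known source of several of them.

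The cells were immortalised mouse brown preadipocytes, the precursors of brown fat cells. They came from newborn mice homozygous for floxed alleles of the insulin receptor (IR) and IGF1R genes. All lines had been immortalised with SV40 T antigen and had both genes inactivated by Cre recombinase carried in an adenovirus. DKO cells lacked both receptors and carried an empty vector. The other 4 lines were DKO cells given a human receptor by retrovirus: intact IR, the kinase-dead K1030R, ∆CT, which lacks the C-terminal tail, and JMO, which keeps the juxtamembrane stretch but neither the kinase domain nor the tail. Each receptor was studied in a single line, so a difference between lines cannot be told apart from a difference between the cell populations that carry them. All cells were starved of serum for 6 h and were then left unstimulated (basal) or given 100 nM insulin for 15 min. DKO cells were studied in the basal state only. Each group had 3 libraries except ∆CT with insulin, which had 2, and nothing in the labels says whether they were separate cultures. The p-values therefore measure the spread between these libraries, which may be technical.

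Library totals ran from 17229000 to 24694800 estimated counts. Transcript levels are given as normalised CPM, that is counts scaled to the size of the library, and differences as log2 values with their standard error (SE). A gene was called changed where the Benjamini-Hochberg adjusted p of edgeR's quasi-likelihood test, taken over all 15402 tested genes, was below 0.05. All adjusted p-values printed here are of that kind. In the 26 libraries, Pdgfrb, a receptor of preadipocytes, stood between 533 and 639 CPM and Pdgfra between 158 and 293 CPM, whereas Dlk1 and Ebf2 from the same list of 8 preadipocyte markers were too low to test. Markers of that list differed between the lines. Set against DKO and JMO cells, the basal IR, K1030R and ∆CT lines were called higher for Pdgfra (0.22 ± 0.02) and slightly lower for Pdgfrb (-0.044 ± 0.017). They were lower for Ly6a (-2.62 ± 0.07, 2.28 to 49.2 CPM over the libraries) and higher for Cd34 (1.57 ± 0.07) and Thy1 (0.93 ± 0.05). Pparg was not called (-0.14 ± 0.10). The macrophage marker Adgre1 and the fat cell hormone Lep were at 0 counts in all 26 libraries, and Ptprc, which marks all white blood cells, never exceeded 0.399 CPM. The endothelial marker Pecam1 was present in every library at 6.83 to 17.3 CPM, whereas Cdh5, Kdr, Tek and Emcn of the same list were too low to test. Insr stood at 23.8 ± 1.33 CPM (SD, n = 3) in DKO cells and at 67.7 to 78.4 CPM on average in the 4 receptor lines at baseline, and Igf1r at 27.1 ± 2.05 CPM in DKO cells and at 30.1 to 35.1 CPM in the receptor lines. Gene totals separate neither the deleted exons nor the human constructs from the mouse gene, so these values do not check the knockout.

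The start regions of Il6, Cxcl1, Cxcl10 and Cxcl12 are shown first. They were picked after their values were seen, 3 as genes that differed widely between the lines and Cxcl12 as a gene that differed little. RefSeq promoter windows on GRCm38.p6, running from 250 bases before to 50 bases after the transcription start, were at hand for 6 of the 10 members, the other 2 being Csf1 and Lif. Each is printed from 5′ to 3′ on the strand of the gene. Capitals mark matches on either strand to an NF-kB pattern (GGG, any 3 bases, TTCC) or to an interferon response pattern (GAAA, any 2 bases, GAAA).
Il6 (chr5:30012864-30013163, plus strand): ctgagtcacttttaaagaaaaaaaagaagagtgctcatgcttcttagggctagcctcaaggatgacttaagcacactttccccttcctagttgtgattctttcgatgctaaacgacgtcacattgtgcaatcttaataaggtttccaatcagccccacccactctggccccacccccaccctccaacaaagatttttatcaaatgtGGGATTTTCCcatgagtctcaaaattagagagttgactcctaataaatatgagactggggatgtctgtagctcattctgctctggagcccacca
Cxcl1 (chr5:90890995-90891294, plus strand): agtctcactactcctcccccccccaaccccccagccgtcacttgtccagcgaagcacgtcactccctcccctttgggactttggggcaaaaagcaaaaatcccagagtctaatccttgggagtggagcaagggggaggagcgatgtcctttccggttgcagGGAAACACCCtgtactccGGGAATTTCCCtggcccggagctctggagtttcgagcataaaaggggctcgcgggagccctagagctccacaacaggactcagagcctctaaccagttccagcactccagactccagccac
Cxcl10 (chr5:92348840-92349139, minus strand): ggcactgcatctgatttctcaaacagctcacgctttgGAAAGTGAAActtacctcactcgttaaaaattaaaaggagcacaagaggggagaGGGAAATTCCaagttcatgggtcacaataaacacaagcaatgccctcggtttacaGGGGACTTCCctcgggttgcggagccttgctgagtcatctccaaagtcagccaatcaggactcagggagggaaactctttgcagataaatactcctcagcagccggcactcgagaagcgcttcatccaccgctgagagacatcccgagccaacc
Cxcl12 (chr6:117168285-117168584, plus strand): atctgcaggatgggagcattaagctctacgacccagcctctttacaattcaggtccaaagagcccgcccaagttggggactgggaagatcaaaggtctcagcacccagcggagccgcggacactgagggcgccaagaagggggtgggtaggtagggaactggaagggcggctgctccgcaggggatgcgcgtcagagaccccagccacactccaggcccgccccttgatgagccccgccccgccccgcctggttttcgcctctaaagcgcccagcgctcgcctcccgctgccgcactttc

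The NF-kB pattern was present in the windows of 4 of the 6 members (Il6, Cxcl1, Cxcl10 and Csf1), against 5.56% of all 32851 windows. Cxcl1 held 3 such matches, of which 2 overlap each other by all but 1 base, Cxcl10 held 2, and Il6 and Csf1 held 1 each. The interferon response pattern was present in Cxcl10 alone among the 6, against 3.44% of all windows. A C/EBP pattern (TTGC, any 2 bases, AA) was found in Il6 alone, against 10.8% of windows, and an AP-1 pattern (TGA, any base, TCA) in Il6, Cxcl10 and Lif, against 7.81%. The window of Cxcl12 held none of the 4 patterns. The 2 windows not printed went otherwise. Csf1 held an NF-kB match, and in basal cells its mean over IR, K1030R and ∆CT differed from that over DKO and JMO by -0.20. Lif held no NF-kB match and differed by -0.91. A match is a run of letters and not evidence of binding.

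The other end of the messengers was examined as well. The pentamer ATTTA, the core of AU-rich elements that mark transcripts for rapid decay, was counted in the longest annotated 3′ untranslated region of each gene (GENCODE M21). The median over 12547 tested genes with at least 100 bases of such sequence was 1.42 pentamers per kb, and 8 of the 10 members lay above it. Cxcl1 (7 pentamers, 11.8 per kb), Il6 (10 pentamers, 6.00 per kb), Ccl7 (2 pentamers, 4.60 per kb) and Cxcl5 (5 pentamers, 4.5 per kb) were above the 90th percentile of 4.10 per kb. Cxcl12 had 0.771 per kb, and Ccl5 had none in its 199 bases.

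Levels per length of exon separated the members over a wide range. The length is that of all annotated exons of a gene merged, 8176 bases for Cxcl12, whichever isoform was expressed. The order depends on that choice. Without division by length, Cxcl12 was the highest in basal DKO cells, at 529 CPM against 470 for Ccl2. In basal DKO cells Ccl2 was the most abundant at 413 CPM per kb of exon, followed by Ccl7 at 192 and Cxcl1 at 104. Cxcl5, Cxcl12 and Csf1 lay close together at 65.4, 64.7 and 62.6 CPM per kb. Cxcl10 stood at 38.3, Ccl5 at 11.7, Il6 at 1.02 and Lif at 0.610 CPM per kb, so the 2 gp130 cytokines were the scarcest of the 10. Their estimates rest on few counts, between 5 and 64 per library for Il6 and between 16 and 62 for Lif. The values of Cxcl5 were fractional in all 26 libraries, which means that the authors' assignment shared its reads with other transcripts and that its level is uncertain to that extent. The same limit applies to Lif, whose values were whole in 14 of the 26 libraries, and in small part to Cxcl12, whole in 24. Ccl2 overlaps Gm17268 and Cxcl10 overlaps Art3 on the opposite strand, and whether counting used the strand is not stated in the sources used here.

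The first comparison asked what each receptor did to these transcripts in unstimulated cells. In cells expressing IR, K1030R or ∆CT, most of the chemokines and cytokines were lower than in DKO cells, and in cells expressing JMO none was called lower. The 4 comparisons share the same 3 DKO libraries. IR cells had all 10 members called lower, where 24.1% of all tested genes were called lower. K1030R cells had 8 called lower against 20.4% of all genes, the exceptions being Csf1 and Cxcl12. In ∆CT cells 9 were called lower against 22.9% of all genes, and Cxcl12 was called higher, as were 23.4% of all genes. JMO cells had 3 called higher against 16.9% of all genes, namely Cxcl1, Cxcl5 and Cxcl12, and 0 called lower against 17.4%. In 2 of the alternative fits 1 member was called lower in JMO than in DKO cells, Cxcl10 with no filter on low counts (-0.17, adjusted p = 0.00195) and Csf1 in a model of only the 2 groups (-0.080, adjusted p = 0.0402).

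**Figure D1:**
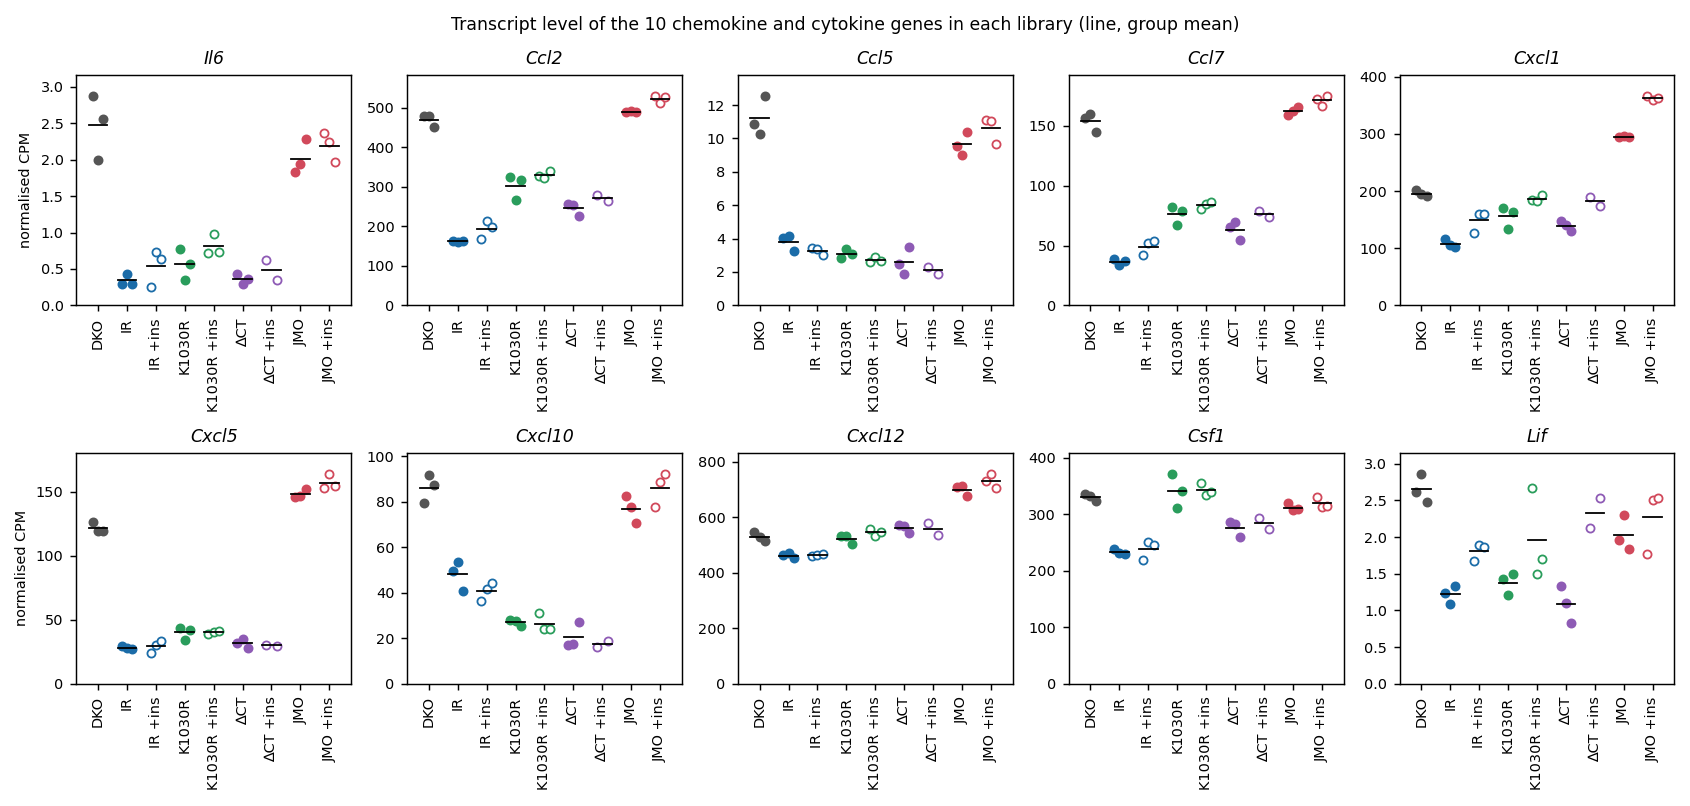
Normalised CPM (vertical axis, from 0, a separate scale for each gene) of the 10 members in each of the 26 libraries, grouped on the horizontal axis by line and treatment. Filled points are basal libraries, open points are libraries with insulin (+ins), and each black line is a group mean. For Il6, Ccl2, Ccl5, Ccl7, Cxcl5 and Cxcl10 every IR, K1030R and ∆CT library lies below every DKO and JMO library.

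Where a difference of at least 1.5-fold was required, by edgeR's glmTreat, 7 members remained lower in IR cells (3.29% of all genes), 5 in K1030R cells (3.25%) and 7 in ∆CT cells (3.91%). JMO cells then had 0 members called in either direction, against 2.11% of all genes, although 3 had an unadjusted p under 0.05 without that minimum and DESeq2 also called 3. The contrast of the mean of IR, K1030R and ∆CT with the mean of DKO and JMO gave all 10 members lower (25.6% of all genes were called lower and 26.7% higher). With the 1.5-fold minimum, 8 were lower in that contrast (3.63% of all genes), all but Cxcl12 and Csf1, and limma's treat with the same minimum called 7, without Lif (adjusted p = 0.222, against 0.0438 by glmTreat). The median difference was -1.26 over the members and 0.01 over all tested genes. In a bulk sample, fewer cells expressing a gene and less RNA per cell cannot be told apart. Markers of macrophages, a cell type that makes several of these proteins, moved with the members: the 7 markers summed to between 12.9 and 16.8 CPM in basal DKO and JMO libraries and to between 7.97 and 10.3 CPM in basal IR, K1030R and ∆CT libraries. The 3 of the 7 that could be tested, Lyz2 (-0.97 ± 0.07), Csf1r (-0.66 ± 0.22) and Cd68 (-0.32 ± 0.10), were called lower in the contrast. The defining marker Adgre1 was at 0 in every library, and Ptprc, Itgam and Mrc1 did not exceed 0.399, 0.324 and 0.345 CPM. The 6 markers of mature fat cells also moved with the members, summing to between 2.50 and 4.88 CPM in basal DKO and JMO libraries and to between 0.601 and 2.02 CPM in basal IR, K1030R and ∆CT libraries. Fabp4, the only one of them that could be tested, was lower by -1.79 ± 0.15 (adjusted p = 1.20e-12), while Adipoq, Cidea and Ucp1 did not exceed 0.0514 CPM and Lep was at 0. The part of these marker signals in the result was not tested.

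Groups of libraries were also compared without a model. For 8 members every basal IR, K1030R and ∆CT library lay below every basal DKO and JMO library, which held for 7.79% of all tested genes. With the insulin libraries included it held for 6 members, against 5.43% of genes. Cxcl1 and Lif dropped out on adding insulin, and Cxcl12 and Csf1 overlapped in both settings.

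Among the CC chemokines, Ccl2 (chr11:82035571-82037453, plus strand) encodes MCP-1, the main attractant of monocytes to adipose tissue. It stood at 480, 478 and 451 CPM in basal DKO cells and at 490 CPM in each of the 3 basal JMO libraries. The K1030R libraries held 324, 266 and 317 CPM, the ∆CT libraries 257, 253 and 226, and the IR libraries 164, 161 and 163. The IR libraries were thus the lowest without overlap, and Ccl2 differed from DKO by -1.53 ± 0.07 (log2, SE) in IR cells (adjusted p = 1.44e-12), by -0.94 ± 0.07 in ∆CT cells and by -0.64 ± 0.07 in K1030R cells. The difference of JMO from DKO was 0.06, with a 95% interval of -0.09 to 0.21.

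Ccl7 (chr11:82045712-82047525, plus strand), which encodes the related monocyte attractant MCP-3, lies 8258 bases from Ccl2 with no protein-coding gene between them. Its levels followed the same order. DKO libraries held 157, 160 and 145 CPM and JMO libraries 159, 162 and 165, against 81.8, 67.4 and 78.7 in K1030R, 65.7, 69.3 and 54.5 in ∆CT and 38.6, 34.1 and 37.3 in IR. Its difference from DKO reached -2.06 ± 0.09 in IR cells, that is 4.18-fold lower (adjusted p = 3.84e-13).

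Ccl5 (chr11:83525778-83530518, minus strand), or RANTES, attracts T cells and lies 1478252 bases from Ccl7. It had a different order. DKO libraries held 10.9, 10.3 and 12.6 CPM and JMO libraries 9.56, 9.03 and 10.4, while IR held 4.01, 4.18 and 3.26, K1030R 2.84, 3.37 and 3.05, and ∆CT 2.47, 1.90 and 3.47. All 9 libraries of IR, K1030R and ∆CT were below the 6 of DKO and JMO, with differences from DKO of -1.56 ± 0.13, -1.86 ± 0.14 and -2.12 ± 0.14.

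**Figure D2:**
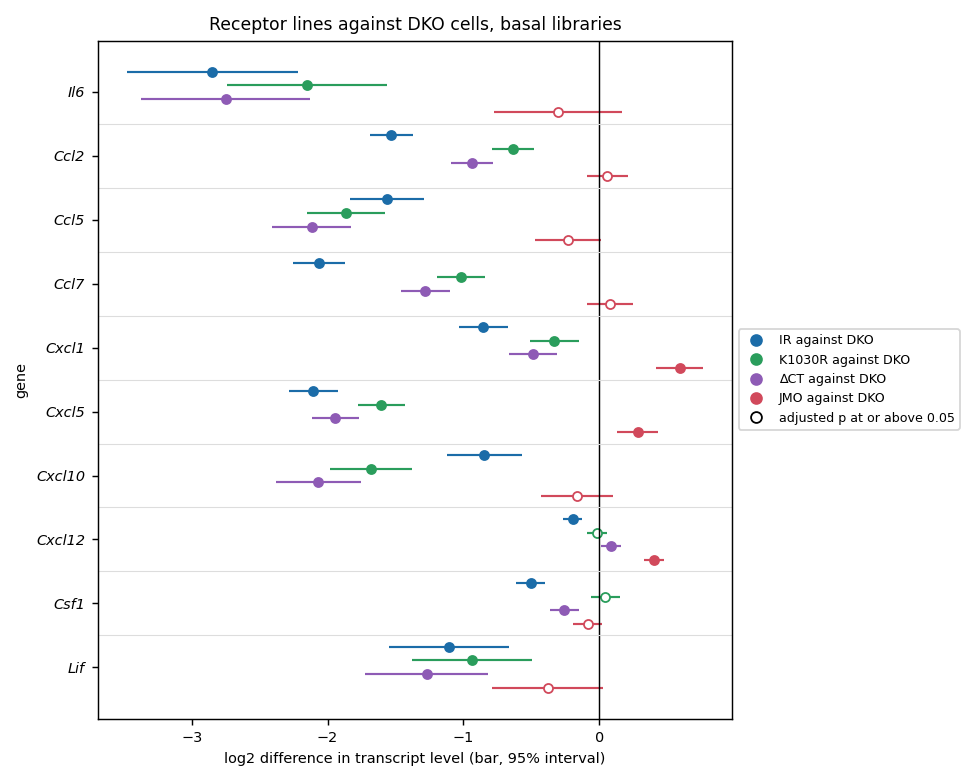
Log2 difference in transcript level between each receptor line and DKO cells in basal libraries (horizontal axis) for the 10 members (vertical axis), with 95% intervals. Filled points had an adjusted p below 0.05, open points did not. Il6 shows the widest negative values, -2.85 in IR cells and -2.75 in ∆CT cells, while the JMO points lie between -0.38 and 0.59.

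Cxcl1 (chr5:90891241-90893115, plus strand) and Cxcl5 (chr5:90759360-90761624, plus strand) encode neutrophil attractants that act on CXCR2, and lie in one chemokine cluster, 129616 bases apart with 4 protein-coding genes between them. Cxcl5 was at 127, 119 and 120 CPM in DKO cells and at 146, 147 and 152 in JMO cells. It was at 29.2, 28.3 and 27.4 CPM in IR cells, 43.6, 34.5 and 42.3 in K1030R cells and 32, 34.8 and 28.2 in ∆CT cells. Every JMO library was above every DKO library, and the JMO difference of 0.28 ± 0.07 was called (adjusted p = 0.00385), while the IR difference was -2.10 ± 0.08.

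Cxcl1 had the largest difference of JMO from DKO cells among the 3 members called higher. Its DKO libraries held 202, 194 and 191 CPM and its JMO libraries 295, 296 and 294, a difference of 0.59 ± 0.08 or 1.51-fold (adjusted p = 1.66e-05). K1030R libraries held 170, 133 and 164 CPM, ∆CT libraries 147, 140 and 131, and IR libraries 116, 105 and 103. The decrease from DKO was 1.81-fold in IR cells, and in K1030R cells it amounted to -0.33 (95% interval -0.51 to -0.15, adjusted p = 0.00386). That last call was lost in a model of only the 2 groups compared (adjusted p = 0.0616).

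Cxcl10 (chr5:92346638-92348889, minus strand) encodes IP-10, an interferon-induced attractant of T cells acting on CXCR3. It stood at 79.6, 91.9 and 87.2 CPM in DKO cells and at 82.4, 77.6 and 70.6 in JMO cells, which overlap. It was at 49.6, 53.7 and 40.8 CPM in IR cells, at 27.9, 27.7 and 25.2 in K1030R cells and at 17.2, 17.5 and 27.2 in ∆CT cells. In contrast to Ccl2 and Ccl7, its IR libraries were the highest of the 3 lower lines, with a difference from DKO of -0.85 ± 0.13 for IR, -1.68 ± 0.14 for K1030R and -2.07 ± 0.15 for ∆CT. With a 1.5-fold minimum the IR difference was not called (adjusted p = 0.111 by glmTreat).

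Cxcl12 (chr6:117168535-117181367, plus strand) encodes SDF-1, which stromal cells make constitutively and which attracts cells bearing CXCR4. It was the least variable of the chemokines. IR libraries held 463, 470 and 452 CPM, DKO libraries 546, 528 and 513, K1030R libraries 533, 532 and 503, ∆CT libraries 572, 568 and 543, and JMO libraries 708, 714 and 674. The JMO libraries were above all others, with a difference from DKO of 0.40 ± 0.03 (adjusted p = 1.65e-11), and the IR libraries were below all others at -0.20 ± 0.03. The ∆CT value of 0.09 had an adjusted p of 0.0379 and was lost with other scaling factors (adjusted p = 0.0506) and in 4 of the 26 repeats that left out 1 library.

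Il6 (chr5:30013114-30019981, plus strand) encodes interleukin-6, a cytokine of acute inflammation and a commonly measured product of senescent cells. Its DKO libraries held 2.88, 1.99 and 2.56 CPM (53, 35 and 64 counts) and its JMO libraries 1.83, 1.94 and 2.28 CPM. IR libraries held 0.299, 0.434 and 0.296 CPM (7, 8 and 6 counts), ∆CT libraries 0.427, 0.300 and 0.362, and K1030R libraries 0.770, 0.352 and 0.569. This was the widest relative difference among the 10 genes, 7.21-fold lower than DKO in IR cells with a 95% interval on the log2 scale of -3.48 to -2.22, and 6.73-fold lower in ∆CT cells. The K1030R libraries overlapped both, and K1030R minus IR was 0.70 with an interval of -0.11 to 1.51, so an order among the 3 lines was not detectable at this depth.

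Lif (chr11:4257557-4272514, plus strand), whose product keeps mouse embryonic stem cells undifferentiated, was similarly scarce. DKO libraries held 2.61, 2.86 and 2.48 CPM and JMO libraries 1.95, 2.30 and 1.83. The values were 1.24, 1.09 and 1.33 CPM in IR cells, 1.43, 1.21 and 1.5 in K1030R cells and 1.33, 1.1 and 0.828 in ∆CT cells. The differences of the 3 lower lines from DKO were -1.1 ± 0.21, -0.94 ± 0.21 and -1.27 ± 0.21, and none of the pairs among those 3 lines was called.

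Csf1 (chr3:107741048-107760469, minus strand), the macrophage growth factor, was high in all lines and varied little. DKO libraries held 336, 332 and 324 CPM, JMO libraries 319, 306 and 309, K1030R libraries 371, 311 and 342, ∆CT libraries 286, 283 and 260, and IR libraries 238, 231 and 229. The IR and ∆CT lines were called lower than DKO, by -0.51 ± 0.05 and -0.26 ± 0.05. JMO differed by -0.085 ± 0.05 (adjusted p = 0.204), which was called in a model of only the 2 groups (adjusted p = 0.0402). K1030R differed from DKO by 0.05 with a 95% interval of -0.06 to 0.15.

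The next comparison set the mutant receptors against intact IR, which asks what kinase activity and the tail add. The members split into those that were lowest in IR cells and those that were not. Ccl2, Ccl7, Cxcl1, Csf1 and Cxcl12 were called higher than IR in both K1030R and ∆CT cells, and Cxcl5 in K1030R cells. Cxcl10 was called lower than IR in both mutants, and Ccl5 was called lower in ∆CT cells. That made 6 members higher (13.9% of all genes) and 1 lower (16.3%) in K1030R cells, and 5 higher (11.2%) and 2 lower (14.8%) in ∆CT cells.

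**Figure D3:**
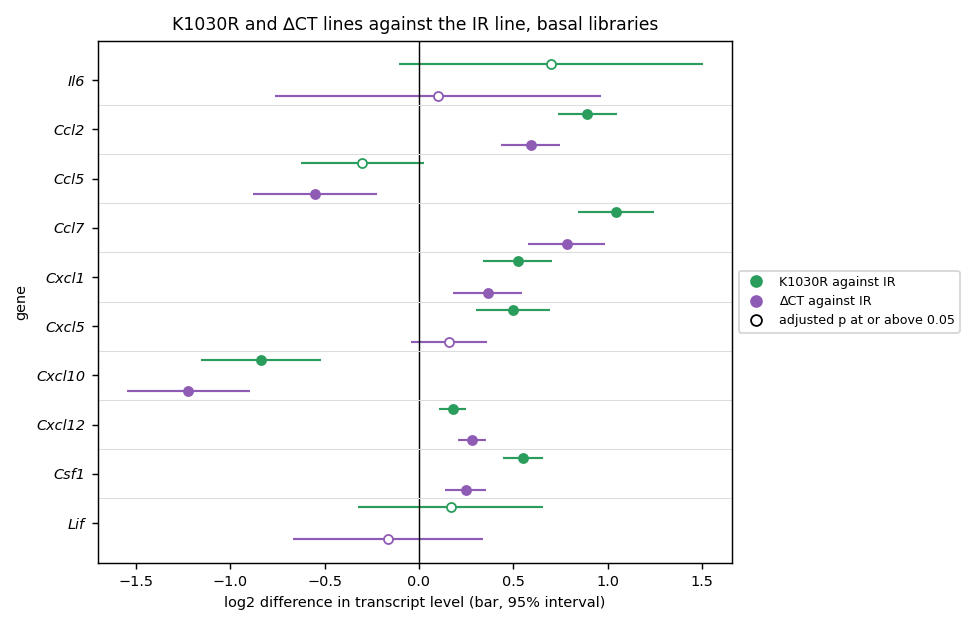
Log2 difference in transcript level of K1030R and ∆CT cells from IR cells in basal libraries (horizontal axis) for the 10 members (vertical axis), with 95% intervals. Filled points had an adjusted p below 0.05, open points did not. Ccl2 and Ccl7 lie to the right of 0 in both lines and Cxcl10 to the left.

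Ccl7 showed the widest increase, 1.05 ± 0.10 in K1030R cells (adjusted p = 9.60e-08) and 0.78 ± 0.10 in ∆CT cells. Ccl2 was higher by 0.89 ± 0.07 and 0.59 ± 0.07, and Csf1 by 0.55 ± 0.05 and 0.25 ± 0.05. Cxcl10 was lower by -0.84 ± 0.15 in K1030R cells (adjusted p = 0.000312) and by -1.22 ± 0.16 in ∆CT cells (adjusted p = 1.01e-05). Ccl5 was at -0.30 in K1030R cells, with an interval of -0.63 to 0.02, and at -0.55 ± 0.16 in ∆CT cells, a call that was lost without ∆CT basal replicate 2 (-0.37, adjusted p = 0.105) and in a model of only the 2 groups (adjusted p = 0.0819). For Il6 and Lif neither mutant was called different from IR, and the intervals for ∆CT, -0.76 to 0.96 for Il6 and -0.67 to 0.34 for Lif, were wide.

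Between the 2 mutants that keep the kinase domain in place, differences were small. ∆CT was called lower than K1030R for 3 members, against 1.95% of all genes: Csf1 by -0.30 ± 0.05 (adjusted p = 0.000507), Ccl2 by -0.30 ± 0.07 (adjusted p = 0.0278) and Cxcl5 by -0.34 ± 0.09 (adjusted p = 0.0482). K1030R basal replicate 2 was below the other K1030R libraries for these 3 genes. The Cxcl5 call held in 4 of the 26 repeats that left out 1 library and the Ccl2 call in 23. Csf1 alone was called without K1030R basal replicate 1 or without replicate 3, and without ∆CT basal replicate 3, the lowest ∆CT library for these 3 genes, the adjusted p was 0.114 for Ccl2 and 0.165 for Cxcl5. No member was called in a model of only these 2 groups.

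JMO was then set against each receptor that keeps most of the intracellular part. JMO cells had all 10 members called higher than IR (20.7% of all genes) and all 10 higher than ∆CT (19.5%). Against K1030R, 9 were higher (17.4% of all genes), and Csf1 was called lower by -0.13 (18% of all genes, adjusted p = 0.0435). Cxcl5 was 5.24-fold, 4.68-fold and 3.71-fold higher in JMO than in IR, ∆CT and K1030R cells, Il6 5.84-fold, 5.45-fold and 3.59-fold, and Ccl7 4.42-fold, 2.56-fold and 2.14-fold. With insulin libraries in place of basal ones Lif was not called against IR (0.31, adjusted p = 0.233), and against ∆CT its difference was -0.050. The Csf1 call against ∆CT was lost without ∆CT basal replicate 3 (adjusted p = 0.0586). The Csf1 and Lif calls against K1030R were close to the threshold and were lost in several alternatives, whereas Il6, Ccl5, Ccl7, Cxcl1, Cxcl5 and Cxcl10 were also called with the 1.5-fold minimum.

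A pulse of insulin for 15 min changed few of these transcripts. In IR cells Cxcl1 and Ccl7 were called higher, against 1.40% of all genes, and in ∆CT cells Lif was called higher, against 0.935%. In K1030R cells 0 members were called (0.156% of all genes in either direction), with 2 at an unadjusted p under 0.05 and 0 by DESeq2. In JMO cells 0 were called (0.364%), with 1 at an unadjusted p under 0.05 and 0 by DESeq2.

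**Figure D4:**
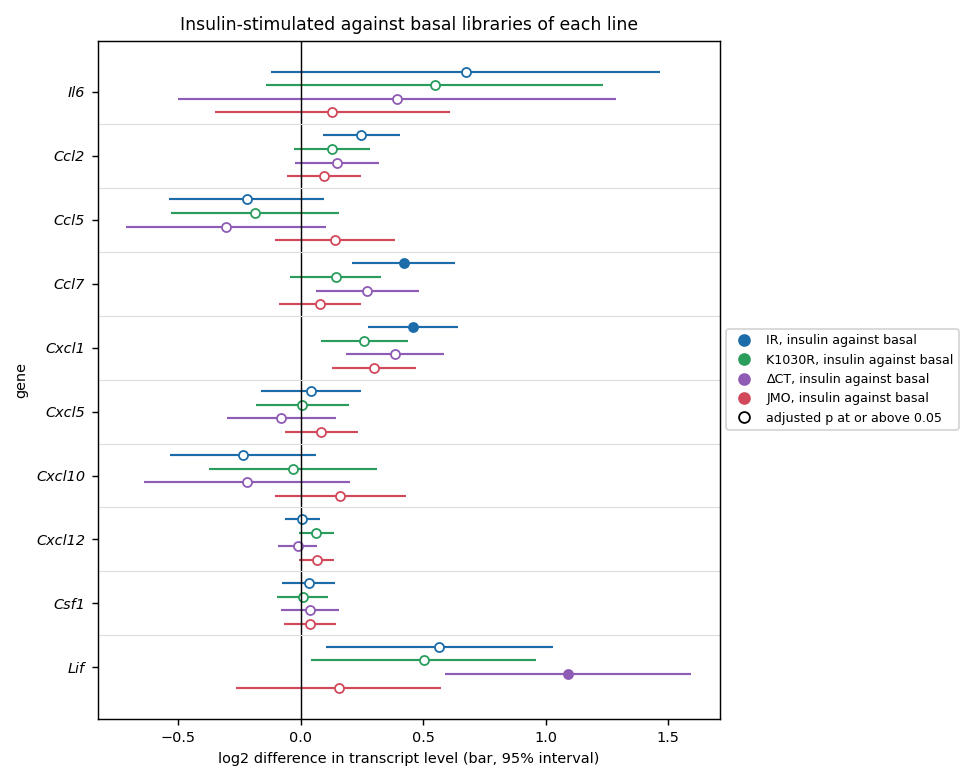
Log2 difference between insulin-stimulated and basal libraries of each line (horizontal axis) for the 10 members (vertical axis), with 95% intervals. Filled points had an adjusted p below 0.05, open points did not. The 4 points of Cxcl1 lie between 0.26 and 0.46, and the Lif point of ∆CT cells is the farthest to the right at 1.09.

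Cxcl1, a classical immediate-early chemokine gene, stood at 116, 105 and 103 CPM in basal IR cells and at 127, 159 and 160 CPM after insulin, a difference of 0.46 ± 0.09 (adjusted p = 0.00701) that was not called in a model of only the 2 groups (adjusted p = 0.202). In K1030R cells it went from 170, 133 and 164 to 184, 182 and 192 CPM, and in ∆CT cells from 147, 140 and 131 to 190 and 174. In JMO cells it went from 295, 296 and 294 to 367, 359 and 363 CPM. In each of the 4 lines every insulin library was above every basal library, which held for Cxcl1 alone among the members and for 0.610% of all tested genes. The differences in K1030R, ∆CT and JMO cells were 0.26 ± 0.08, 0.38 ± 0.09 and 0.30 ± 0.08, with adjusted p of 0.536, 0.0669 and 0.211, so they did not pass the test. Cxcl1 was called higher in all 4 lines with no filter on low counts, in ∆CT cells by DESeq2, and in ∆CT and JMO cells in models of only the 2 groups.

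Ccl7 in IR cells was at 38.6, 34.1 and 37.3 CPM before and 41.8, 52.0 and 53.5 CPM after insulin (0.42 ± 0.10, adjusted p = 0.0348). Insulin replicate 1 of IR cells was the lowest of its group for Ccl2, Ccl7, Cxcl1, Cxcl5, Cxcl10, Cxcl12, Csf1, Il6 and Lif. Without it the difference was 0.52 for Ccl7 and 0.56 for Cxcl1. Without insulin replicate 3 the 2 calls were lost (adjusted p = 0.171 for Ccl7 and 0.0505 for Cxcl1). The Ccl7 call was also lost without IR basal replicate 1 or 2 or insulin replicate 2 (adjusted p from 0.0849 to 0.164), and with the replicate number as a block (adjusted p = 0.0521), although the numbers do not pair the libraries.

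Lif in ∆CT cells was at 1.33, 1.1 and 0.828 CPM before and 2.12 and 2.53 CPM after insulin (28, 22 and 16 against 41 and 57 counts), a difference of 1.09 ± 0.24 or 2.13-fold (adjusted p = 0.00888). The call was lost without ∆CT basal replicate 3 (0.94, adjusted p = 0.0752) or without ∆CT insulin replicate 2 (0.95, adjusted p = 0.256), which leaves a single insulin library, and in a model of only the 2 groups (adjusted p = 0.0734). In IR, K1030R and JMO cells the Lif differences were 0.57 ± 0.22, 0.50 ± 0.22 and 0.15 ± 0.20, none of them called.

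Whether insulin acted differently in a mutant line than in IR cells was tested as a difference of the differences. No member was called for K1030R (0.370% of all genes were), ∆CT (0.00649%) or JMO (0.279%). At an unadjusted p under 0.05 there were 0, 0 and 2 members, and DESeq2 called 0 in each. For Cxcl1 the insulin difference was smaller than in IR by 0.20 in K1030R cells, with an interval from -0.45 to 0.06, and by 0.16 in JMO cells, with an interval from -0.41 to 0.09. For Ccl7 the difference of JMO from IR was -0.34 ± 0.13 (adjusted p = 0.632) and for Cxcl10 it was 0.40 ± 0.19 (adjusted p = 0.767).

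Genes around the members were followed in the contrast of IR, K1030R and ∆CT with DKO and JMO, in 8 lists. Over all tested genes 26.7% were called higher and 25.6% lower in this contrast. Of 27 other chemokines 11 were expressed enough to test, and 4 were called higher and 4 lower, with a median of 0.07. Ppbp (-1.49 ± 0.28) and Ccl17 (-1.35 ± 0.28) were lower and Cxcl2, a neighbour of Cxcl1 with a like function, was higher (1.28 ± 0.27), though all 3 averaged 1.34 CPM or less in every basal group. Of 26 other interleukins and blood cell growth factors 16 were tested, with 5 higher and 7 lower and a median of -0.10. Il1rn, the natural antagonist of interleukin-1, was at 5.42 ± 0.255 CPM in DKO and 5.68 ± 0.354 in JMO cells and at 1.73 ± 0.313 in IR cells (-1.72 ± 0.10), while Il7, a lymphocyte growth factor, and Il33, an alarmin, were lower by -1.0 ± 0.15 and -0.98 ± 0.14. Il1b, Il10, Osm and Xcl1 had 0 counts in all libraries.

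Of 16 receptors for the members 7 were tested, with 1 higher and 3 lower. Il6ra, the specific chain of the interleukin-6 receptor, was at 39.1 ± 1.05 CPM in DKO and 27.8 ± 1.12 in IR cells (-0.42 ± 0.04), and Lifr, the receptor of Lif, was higher by 0.34 ± 0.05. Csf1r, the receptor of Csf1 and also a macrophage marker, averaged 0.830 CPM or less in all basal groups (-0.66 ± 0.22). The chemokine receptors Ccr3, Cxcr1, Cxcr3 and Ackr1 were at 0 counts in all 26 libraries.

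**Figure D5:**
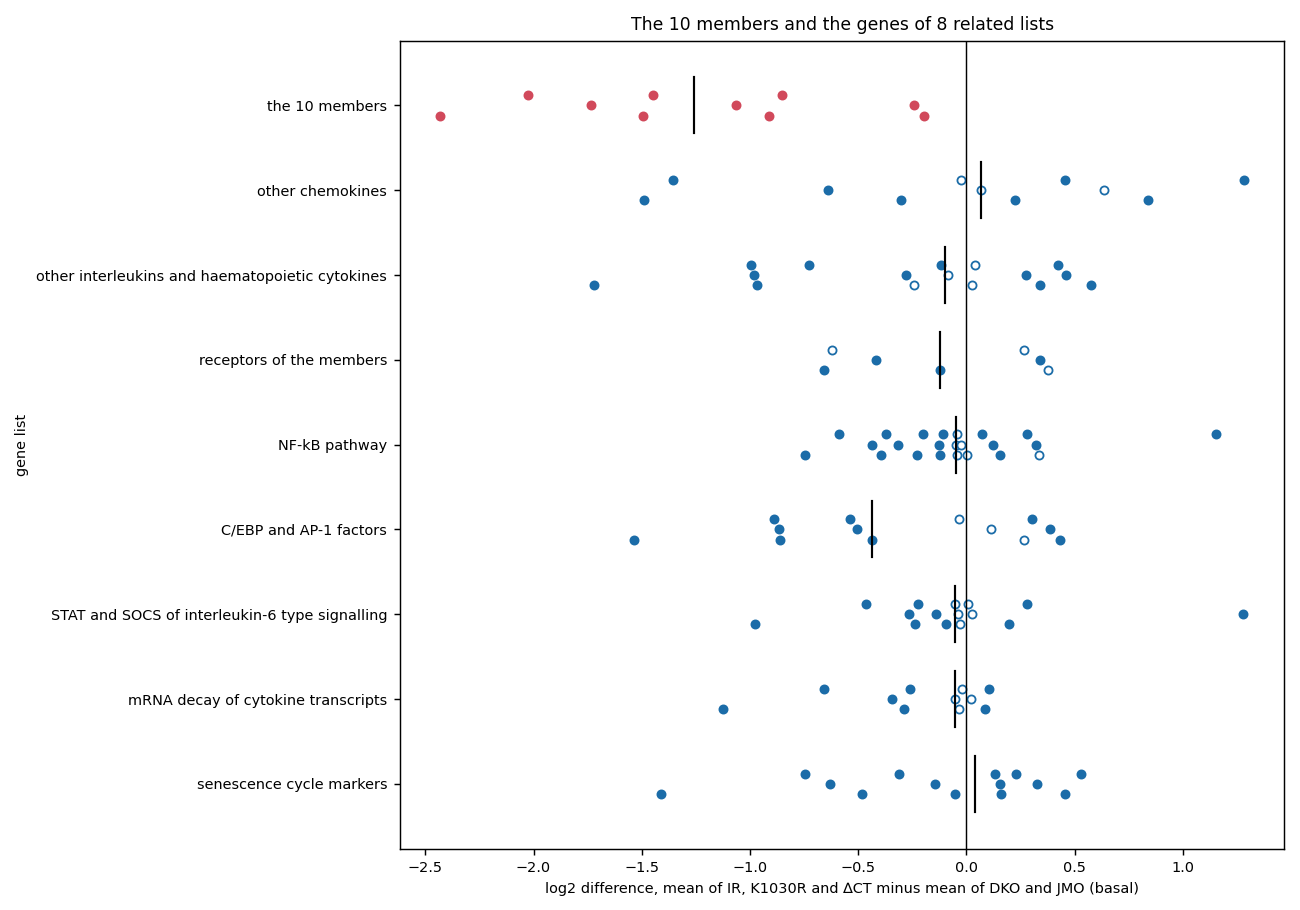
Log2 difference between the averaged IR, K1030R and ∆CT groups and the averaged DKO and JMO groups in basal libraries (horizontal axis) for the 10 members and for each tested gene of 8 related lists (vertical axis). Filled points had an adjusted p below 0.05 and each black bar is a list median. The members have a median of -1.26 and the C/EBP and AP-1 factors one of -0.44, while the medians of the other 7 lists lie between -0.12 and 0.07.

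Among 23 tested genes of the NF-kB pathway 6 were higher and 11 lower, with a median of -0.05. Nfkbiz, an NF-kB cofactor needed for Il6 induction, averaged 68.4 ± 1.86 CPM in DKO, 67.3 ± 1.04 in JMO and 37.7 ± 3.11 in IR cells (-0.75 ± 0.04), and Ikbkg, the regulatory subunit of the IKK complex, was lower by -0.59 ± 0.02. Icam1, an adhesion molecule that NF-kB induces, went the other way at 1.15 ± 0.09. In JMO against DKO cells 11 of the 23 were called higher and 0 lower, where 16.9% and 17.4% of all genes were.

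The 13 C/EBP and AP-1 factors had 7 lower and 3 higher, with a median of -0.44 against 0.01 for all genes. Fosl1 was at 20.05 ± 0.337 CPM in DKO, 14.5 ± 1.69 in JMO, 8.32 ± 1.28 in K1030R, 6.61 ± 1.71 in ∆CT and 3.64 ± 0.455 in IR cells (-1.54 ± 0.08). Cebpd, an acute-phase factor, was lower by -0.89 ± 0.06 and Fos by -0.87 ± 0.10. For Fos the IR group did not share the decrease, standing at 4.37 ± 0.810 CPM against 4.12 ± 0.477 in DKO cells. The list median likewise shifted little for IR against DKO, at -0.05 (6 lower, 3 higher). Against the same DKO libraries it was -0.40 for K1030R (7 lower, 2 higher) and -0.44 for ∆CT (8 lower, 2 higher).

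Of 15 genes for STAT factors, their kinases and their inhibitors 3 were higher and 7 lower, with a median of -0.05. Socs1, an inhibitor of JAK kinases, was lower by -0.46 ± 0.11 and Ptpn6, a phosphatase best known in blood cells that averaged 2.49 CPM or less, was higher by 1.28 ± 0.13. Of 11 genes for decay of cytokine messengers 5 were lower and 2 higher. Zc3h12a, or Regnase-1, an endonuclease that cleaves Il6 messenger, was at 57.5 ± 2.13 CPM in DKO and 21.6 ± 0.799 in IR cells (-1.12 ± 0.04), Arid5a, which stabilises Il6 messenger, was lower by -0.66 ± 0.05, and Zfp36l1, an AU-element binding protein, by -0.34 ± 0.02.

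The 14 tested markers of senescence and cell cycle exit had 7 higher and 7 lower, with a median of 0.04. Igfbp7 (-1.41 ± 0.03) and Timp1 (-0.63 ± 0.04), both secreted proteins of the same phenotype as the members, were lower. Igfbp7 was at 224 ± 7.21 CPM in DKO, 242 ± 4.44 in JMO and 75.2 ± 3.46 in IR cells.

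The genes whose profile over the 9 group means was most like that of a member were found by Pearson's r on the log2 scale. This is a description only. All profiles come from the same libraries, and the highest r was picked from all tested genes, so a high r is easily reached. For Ccl2 the closest gene was Ccl7 (r = 0.994), and for Ccl7 it was Ereg (r = 0.995), the gene of the growth factor epiregulin. Among the members themselves Il6 and Cxcl5 (r = 0.970) and Ccl5 and Cxcl10 (r = 0.958) were also close, and Cxcl10 and Csf1 were the least alike (r = 0.131). Ccl5 was closest to H2-T22 (r = 0.998) and Lynx1 (r = 0.998), and Cxcl10 to Tapbp (r = 0.997), a chaperone of antigen presentation, and Glul (r = 0.997). Cxcl5 was closest to Lmo4 (r = 0.998) and Ltbp2 (r = 0.997), Il6 to Plin4 (r = 0.991) and Vmp1 (r = 0.989), and Ccl2 next to Siglecg (r = 0.992). Cxcl1 was closest to Upf3b (r = 0.981) and Nvl (r = 0.979), Cxcl12 to Slc19a2 (r = 0.985) and Smad9 (r = 0.976), Csf1 to Ccl20 (r = 0.973) and Gtpbp4 (r = 0.972), and Lif to Phtf2 (r = 0.933) and Krit1 (r = 0.921).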

How the data were processed

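RNA was measured by sequencing in 26 libraries of mouse brown preadipocytes in 9 groups. According to the study's methods, polyadenylated RNA was captured with oligo-dT and made into reverse-stranded single-end libraries, and the reads were cleaned by fastp, matched by kallisto to the Ensembl transcripts of the mouse, and added up per gene by tximport. The values used are the expected counts per gene that the authors deposited, neither filtered nor scaled, of which 79.9% were whole numbers. Groups were read from the sample labels, and no library was left out.

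Counts were rounded, genes with more than 0.5 CPM in at least 4 libraries were kept (15402 of 52962), and libraries were scaled by TMM (factors 0.966 to 1.05). All 26 libraries entered 1 quasi-likelihood fit (robust dispersions, a coefficient for each group) in edgeR 4.0.16 (R 4.3.3), with Benjamini-Hochberg adjustment over all tested genes, and a threshold of 0.05. Intervals of 95% are the difference plus or minus its SE times the t quantile at 17 residual degrees of freedom. The study used limma's TREAT with a minimum fold of 1.5, which was run with limma 3.58.1 as an alternative, beside edgeR's glmTreat, DESeq2 1.42.0, other scaling and filters, unrounded counts, smaller models, a replicate block and leaving out each library. On counts simulated for the contrast of IR, K1030R and ∆CT with DKO and JMO over 15402 genes, the test found 88% of 50 genes changed 1.5-fold and 100% of 50 changed 5-fold, and 4.57% of its calls were false. The simulation gave every gene the dispersion of the trend and changed far fewer genes than the 52.3% called in the real contrast. These rates may therefore not hold for the data.

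Same-numbered libraries of different groups did not deviate together (median r = -0.0011 over 100 pairs, lowest -0.108, against -0.0016 over 200 pairs with different numbers), so replicate numbers were not treated as pairs. Replicates differed by more than sampling noise (chi-square per degree of freedom 2.93 to 23.5 over 25 pairs). Library totals bound the precision, and intervals cover the spread between libraries only.

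The 10 members and the lists of related genes were chosen with earlier results of these data known. Genes named besides the members are, for each list, the 3 with the widest called difference in the contrast above (some are not reported here), and for each member the 2 genes with the highest r over the 9 group means of log2 CPM. Genes named as cell type markers or as being at 0 counts were picked after their values were seen. Positions and 3′ sequences are from GENCODE M21 (GRCm38), promoter windows from RefSeq (GRCm38.p6), and 15193 of the tested genes had a symbol. The proteome and phosphoproteome of the study were not analysed here.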

Additional observations from a re-analysis of the deposited data

How the results depend on the processing

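The counts of members called in the basal comparisons with DKO cells and in the contrast of IR, K1030R and ∆CT with DKO and JMO did not move by over 1.5 times with other scaling, filters, unrounded counts, DESeq2, smaller models or any library left out, though Cxcl10 became called lower in JMO against DKO with no filter (adjusted p = 0.00195) and Csf1 in the smaller model (0.0402). They did move with a minimum fold of 1.5. By edgeR's glmTreat and by limma's treat, 5 members were called in K1030R against DKO (8 without the minimum), 0 in JMO against DKO (3), 2 in K1030R against IR (7), 1 in ∆CT against IR (7), 6 in JMO against IR and against K1030R (10 each), 0 in ∆CT against K1030R (3) and 0 for insulin in IR (2) and in ∆CT cells (1). Of all tested genes glmTreat called, in either direction and in the same order, 5.29%, 2.11%, 1.04%, 0.708%, 4.59%, 3.64%, 0.039%, 0.221% and 0.214%. So few genes passed in ∆CT against K1030R and for insulin that 0 members there is not particular to the members. In IR against DKO limma called 6 (10). Of the genes of the 8 lists 82 were called in the contrast, 19 by glmTreat and 15 by limma. Among all tested genes 52.3% were called in it in either direction, and 5.67% by glmTreat. With no filter on low counts 6 members were called in ∆CT against K1030R, 4 for insulin in IR cells, 4 in ∆CT cells, 1 in K1030R cells and 1 in JMO cells, and for the difference of insulin effects from IR 1 in K1030R and 2 in JMO cells. In models of only the groups compared 0 were called in ∆CT against K1030R and for insulin in IR cells, and 1 for insulin in JMO cells, and for insulin in ∆CT cells Cxcl1 was called in place of Lif. DESeq2 called 2 for insulin in ∆CT cells. For fits other than the main one and glmTreat, the share of all genes called is not given here. The counts of members in those fits therefore cannot be read as particular to the members. The cause of these changes was not tested.

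With the replicate number as a block, 1 member was called for insulin in IR cells instead of 2. The other counts of members stayed within 1.5 times, and of single members Cxcl5 in ∆CT against K1030R was lost (adjusted p = 0.0742).

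With 1 library left out, the count ran from 1 to 4 in ∆CT against K1030R, from 0 to 3 for insulin in IR cells, from 0 to 2 for insulin in ∆CT cells and from 0 to 1 for insulin in JMO cells. The K1030R difference from DKO, not called, changed sign for Cxcl12 (-0.039 to 0.010) and for Csf1 (-0.020 to 0.109). With insulin libraries in place of basal ones, Lif in JMO against ∆CT went from 0.89 to -0.050. Depth limits Il6 and Lif, at 5 to 64 counts per library.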
